A study of Rattus norvegicus with 6 samples.

Results

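Potassium channel subunits were examined as the genes whose annotated symbol on the array starts with Kcn, taking probe sets annotated with a single gene. The rule gave 54 genes of 4736 named on the array, measured by 82 probe sets of 8740 that are not controls. A probe set is a group of short probes on the array that together report one transcript. The 6 arrays measured total RNA of rat spinal cord near thoracic segment 8. Of these, 3 came from contused cord 35 days after injury, taken at the epicenter, which is the place struck when the cord is bruised. The other 3 came from uninjured animals at the same level. The labels give no strain, sex, age or injury device, and name no sham operation for the uninjured group, so surgery, elapsed time and contusion cannot be told apart. Whether the arrays of a group stem from separate animals is not stated either, and p-values then reflect only array-to-array spread, which may be technical.

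Potassium channels let potassium ions leave or enter cells and so set the resting potential, end each action potential and fix how fast a neuron can fire. Voltage-gated (Kv) channels are assembled from pore-forming alpha subunits with cytoplasmic or membrane partners, inward rectifiers (Kir, the Kcnj genes) hold cells near rest, and K2P channels (Kcnk genes) carry background leak. In the spinal cord, Kv channels of the Kcna group lie beside the nodes of Ranvier of myelinated axons, Kcnc channels serve fast-firing neurons, and Kcnj10 channels take up potassium in astrocytes and oligodendrocytes.

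The 2 groups were well separated over the 6705 probe sets bright enough to be tested. Their log2 signals correlated at 0.958 to 0.977 within a group and at 0.91 to 0.932 across groups. Arrays had median signals of 122 to 127. On each, 73.1% to 76% of probe sets exceeded the floor, a signal of 61.6 below which values were raised to it. The ratio of 3' to 5' signal of the GAPDH control, a measure of RNA integrity, was 1.08 to 1.17 over the 6 arrays. For the beta-actin control this ratio spread wider, from 1.03 to 1.28. Of 9 neuron markers on the array, Syt1 lay at the floor on all arrays. The summed neuron signal was 14424 to 16999 in uninjured cord, and oligodendrocyte markers, 6 on the array, summed to 13925 to 15280 there.

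Of the 82 probe sets, 52 from 41 genes lay above the floor on at least 3 arrays and were tested. After contusion 8 of the 52 (15.4%) were lower and 0 were higher at an adjusted p of 0.05 in limma. Over all 6705 probe sets tested the corresponding shares were 9.59% lower and 7.79% higher, or 17.4% in either direction. The share of potassium channel probe sets called in either direction was thus close to the background, and every one of the 8 calls was a fall. At an unadjusted p of 0.05, 13 members (25%) were lower and 3 (5.77%) higher, beside 16.3% lower and 14% higher of all probe sets tested. The median log2 change of the tested members was -0.03, beside -0.01 over all probe sets tested, and 30 of the 52 lay below 0. With each gene represented by its tested probe set of highest mean, 6 of 41 genes were lower and 0 higher, beside counts of 277 higher and 392 lower among 3955 tested genes on the array. The 8 probe sets belonged to Kcna1, Kcnab2, Kcnab3, Kcnc1, Kcnc2, Kcnh2, Kcnk1 and Kcns3. In 5 of them all 6 arrays lay above the floor. The other 3, Kcnab3, Kcnc2 and Kcns3, were above the floor on 3 uninjured arrays each but on only 2, 1 and 0 contused arrays. They entered the test through the uninjured group, where they are high, so the filter itself favours falls among them. Raising values to the floor understates their log2 changes, for Kcnab3 only slightly. In bulk tissue, fewer cells of a type and less RNA per cell cannot be told apart in any of these values.

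**Figure D1:**
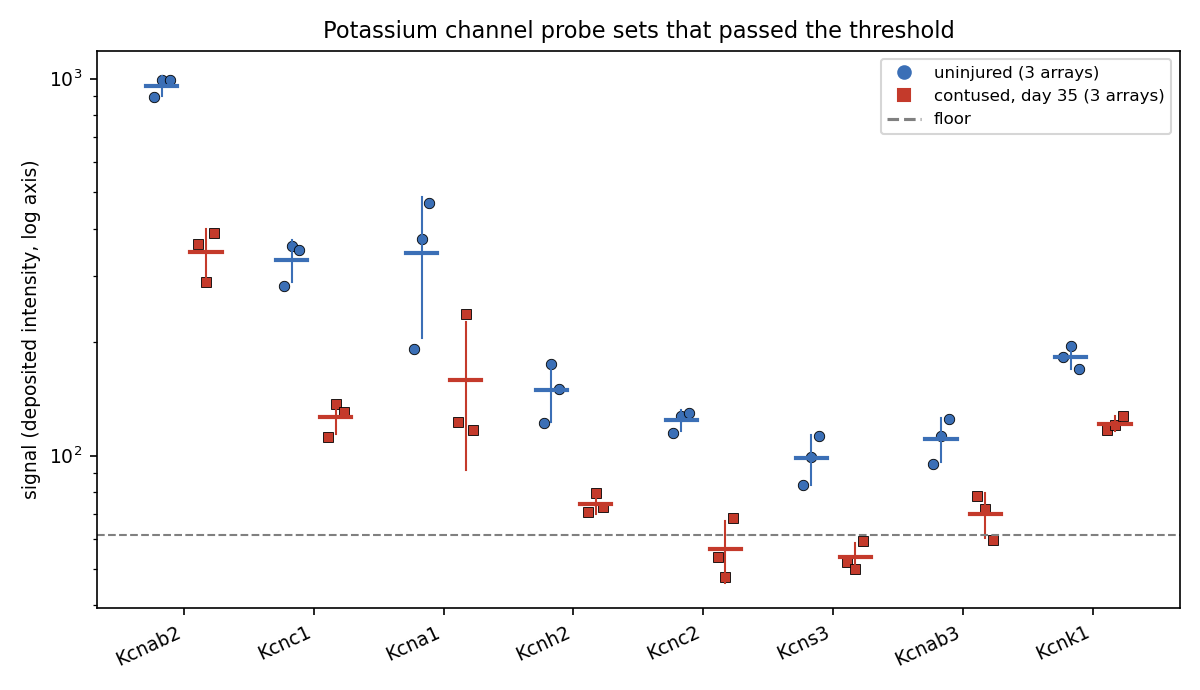
Signal of the 8 potassium channel probe sets past the threshold, on a log axis, for each of 3 uninjured arrays (circles) and 3 contused arrays (squares). Horizontal bars are means, vertical bars SDs (n = 3), and the dashed line is the floor of 61.6. The groups do not overlap in any gene but Kcna1.

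By class, Kv alpha subunits gave 5 falls among 28 tested probe sets, auxiliary subunits 2 among 6 and K2P channels 1 among 4. Over all probe sets tested 9.59% were lower. With each gene represented by its tested probe set of highest mean, the falls were 3 of 23 Kv alpha, 2 of 4 auxiliary and 1 of 3 K2P genes. Beside these, 392 of 3955 tested genes on the array were lower. None of 13 tested inward rectifier probe sets passed in limma, with 2 lower and 1 higher at an unadjusted p of 0.05. Only 1 of 7 probe sets of calcium- or sodium-activated channels was bright enough to be tested, and it was not called, also at an unadjusted p of 0.05.

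**Figure D2:**
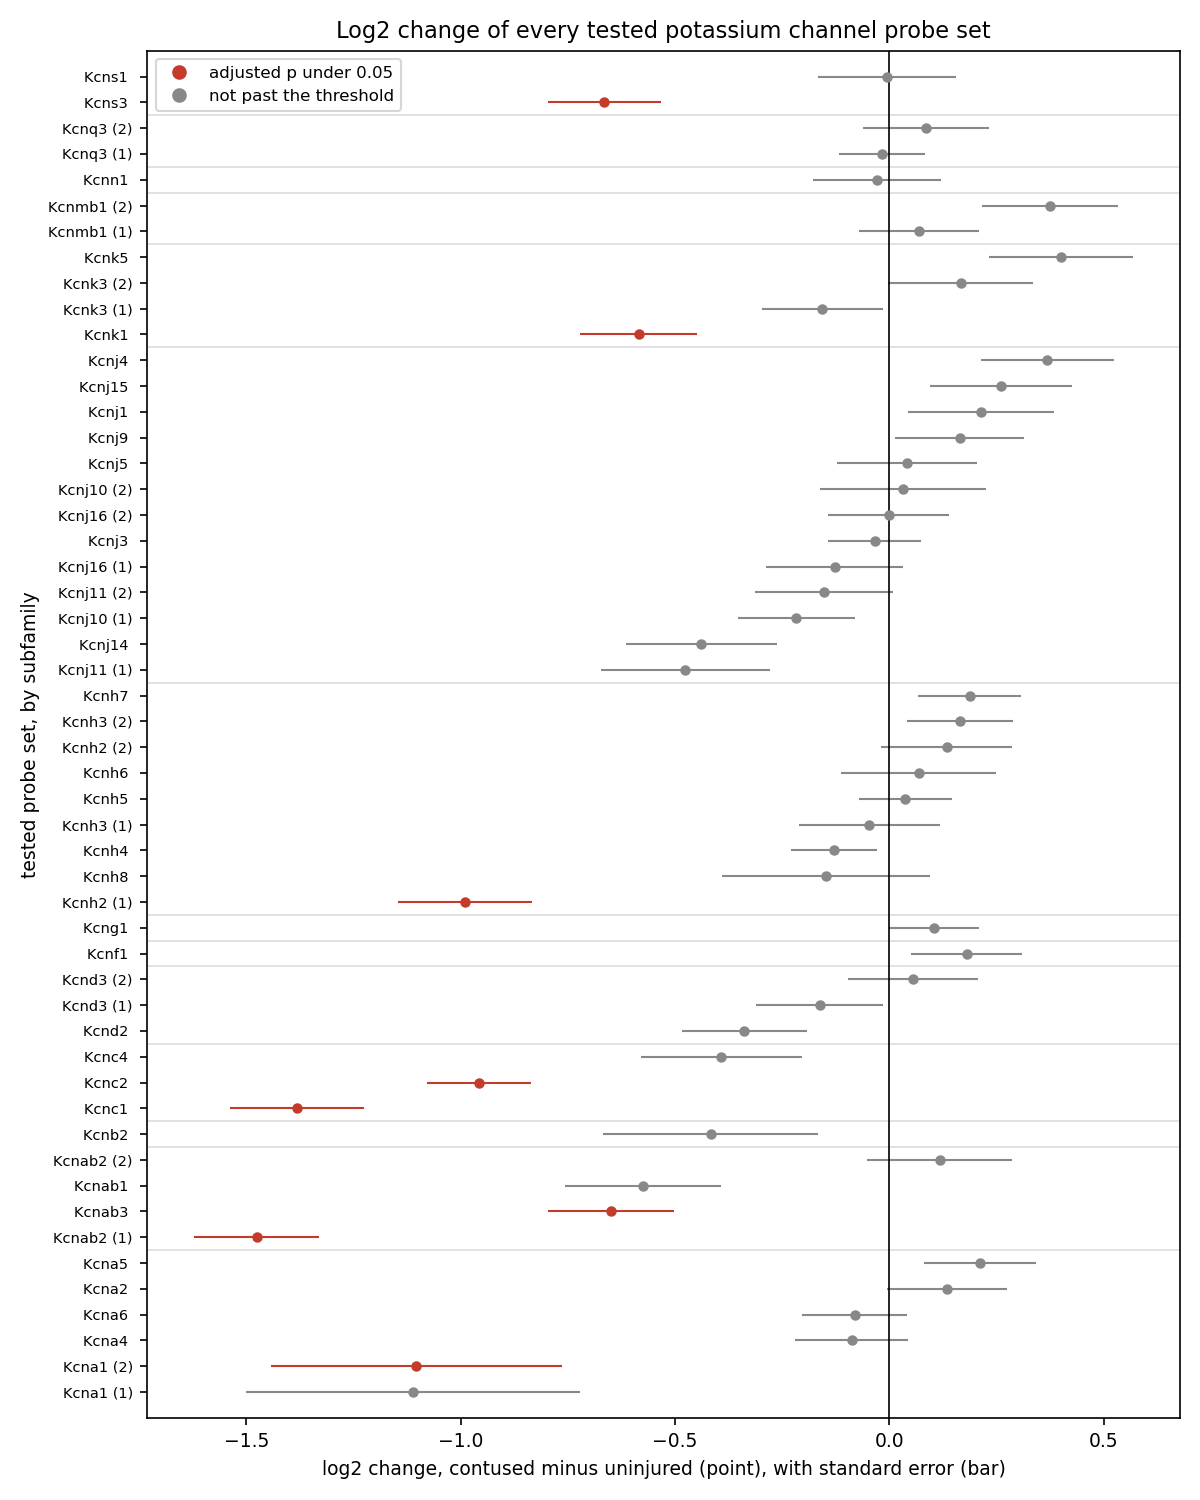
Log2 change after contusion (contused minus uninjured) of the 52 tested potassium channel probe sets, grouped by subfamily, with the standard error of limma's fit as the bar. Those past an adjusted p of 0.05, in red, all lie left of 0. Numbers in brackets separate probe sets of the same gene.

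The Kcnc genes encode Kv3 channels, which open at strongly depolarised potentials and close fast, and so allow brief action potentials at high rates. Kcnc1 gave signals of 283, 359 and 351 on uninjured arrays 1, 2 and 3 and of 112, 137 and 131 on contused arrays 1, 2 and 3. Every contused array lay below every uninjured one. The signal fell 2.61-fold, from a mean of 331 ± 42 to 127 ± 12.9 (SD, n = 3; log2 change -1.38, SE 0.16, limma adjusted p = 0.000262). Here and for the other genes, the fold is taken from the fitted log2 change and can differ slightly from the ratio of the means. Kcnc2 moved from 115, 127 and 129 in uninjured cord to 53.8, 47.6 and 68.2 after contusion. Only contused array 3 was above the floor, and the groups did not overlap. Its log2 change was -0.96 (SE 0.12, limma adjusted p = 0.000483). Kcnc4, the third Kv3 gene measured, gave 184, 222 and 240 against 131, 203 and 164 after contusion. Its groups overlapped and it was not called (log2 change -0.39, limma adjusted p = 0.191).

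Beside the Kv3 genes, markers of inhibitory interneurons, many of which fire fast and use Kv3 channels, were lower as well. Of 4 tested, 3 were lower and 0 higher. This count and those of the other marker lists stand beside 392 lower and 277 higher among all 3955 tested genes on the array. Pvalb, the calcium-binding parvalbumin, fell 3.63-fold, and Gad1, which makes GABA, fell 2.62-fold. The summed signal of the 5 markers on the array was 1446 to 1737 in uninjured cord and 577 to 772 after contusion. Slc6a5, the glycine transporter of inhibitory neurons, had a log2 change of -0.03 and did not pass. The part of these cells in the Kcnc values was not tested.

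Kcnab genes encode the beta subunits of Kv channels, cytoplasmic proteins that bind Kcna alpha subunits, bring them to the membrane and axon, and in some cases speed their inactivation. Kcnab2 gave 893, 991 and 993 in uninjured cord and 363, 289 and 389 after contusion on probe set rc_H33656_at. The groups lay far apart. The signal fell 2.78-fold on the log2 scale, from a mean of 959 ± 56.8 to 347 ± 52.1 (log2 change -1.48, SE 0.15, limma adjusted p = 0.000117), the largest change among the tested members. The other Kcnab2 probe set, X76724_at, was not lower (log2 change 0.12, limma adjusted p = 0.699), so the fall rests on 1 of 2 probe sets. Kcnab3 moved from 95, 113 and 125 to 78.2, 72 and 59.6. All contused arrays were lower than all uninjured ones, and the log2 change was -0.65 (SE 0.15, limma adjusted p = 0.0122). Without uninjured array 3 it did not pass (adjusted p = 0.0606), nor without the filter on dim probe sets (0.063). Kcnab1 gave 99.1, 107 and 118 in uninjured cord and 62.5, 97.8 and 60.2 after contusion. The groups did not overlap, but the gene narrowly missed the threshold (log2 change -0.57, limma adjusted p = 0.0535); it is named after its values were seen. It passed with quantile normalization (adjusted p = 0.038), with scaling to a common median (0.0444), with the replicate number as a block (0.0411) and without contused array 2 (0.00803).

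The pore-forming partners of these beta subunits are the Kcna genes, of which Kcna1 and Kcna2 are the main subunits beside the nodes of myelinated axons. Probe set M26161_at of Kcna1 gave 192, 376 and 468 on uninjured arrays 1, 2 and 3, and 123, 237 and 117 on contused arrays 1, 2 and 3. Contused array 2 exceeded uninjured array 1, so the groups overlapped. Its log2 change was -1.1 (SE 0.34, limma adjusted p = 0.0486). The second Kcna1 probe set, X12589cds_s_at, gave 388, 971 and 978 against 337, 534 and 203. In both probe sets uninjured array 1 was the lowest of its group and contused array 2 the highest. Its log2 change of -1.11 (SE 0.39) was nearly the same, but it did not pass (limma adjusted p = 0.0774). The call of M26161_at was lost without contused array 1 (adjusted p = 0.176), contused array 3 (0.142), uninjured array 2 (0.162) or uninjured array 3 (0.185). X12589cds_s_at passed once contused array 2 (adjusted p = 0.0477) or, instead, uninjured array 1 (0.015) was left out. The call at the threshold thus depended on single arrays. With any 1 array left out the log2 change stayed below 0, at -0.84 to -1.48 for M26161_at and -0.76 to -1.55 for X12589cds_s_at.

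None of the other Kcna genes passed. Kcna5, a delayed rectifier also found in muscle and glia, gave 605, 682 and 618 in uninjured cord and 742, 810 and 658 after contusion, with overlapping groups (log2 change 0.21, limma adjusted p = 0.314). The tested probe sets of Kcna2, Kcna4 and Kcna6 had log2 changes of 0.13, -0.09 and -0.08, and were named after their values were seen. Kcna3, a channel of lymphocytes and microglia, was at or below the floor on all 6 arrays, with a highest signal of 49.2. Of 10 tested markers of microglia and macrophages in the same tissue, 9 were higher and 0 lower. The exception, Csf1r, had overlapping groups and a log2 change of -0.33 (limma adjusted p = 0.175). The summed signal was 5976 to 6390 after contusion against 1515 to 1929 in uninjured cord. Lgals3 and C1qb gave the largest parts of it after contusion, with means of 2139 and 1389. Fcgr2b and Itgam, 2 of the 9, were above the floor on contused arrays only and entered the test through that group. Itgam did not pass without uninjured array 2 (adjusted p = 0.052) or 3 (0.0677). Cd74 did not pass without contused array 2 (0.101) or uninjured array 1 (0.0753) or 3 (0.122), nor without the filter on dim probe sets (0.061). The count of higher markers was 7 at its lowest, without uninjured array 3.

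The Kcnh genes encode ether-a-go-go channels, which open slowly and shape the pauses between action potentials. Kcnh2 was called on probe set Z96106_at, with 122, 175 and 150 in uninjured cord and 70.7, 79.6 and 72.9 after contusion. The groups did not overlap, and the signal fell 1.99-fold in the fit (log2 change -0.99, SE 0.16, limma adjusted p = 0.00172). The brighter Kcnh2 probe set, U75210_s_at, was not lower (log2 change 0.13, limma adjusted p = 0.615). Besides Z96106_at, 8 Kcnh probe sets were tested, U75210_s_at among them, and none passed in limma, also at an unadjusted p of 0.05. Kcnh3 gave 384, 301 and 389 against 289, 383 and 368 on its brighter probe set, a log2 change of -0.05, and a log2 change of 0.16 on its other probe set. The other genes, Kcnh4 to Kcnh8, had log2 changes between -0.15 and 0.19.

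The Kcns, Kcnf, Kcng and Kcnv genes encode silent alpha subunits, which form no channel alone but modify Kcnb channels. Kcns3 gave 83.3, 99.1 and 113 in uninjured cord. On contused arrays it gave 52.3, 50 and 59.1, each below the floor. It was at least 1.59-fold lower after contusion (log2 change -0.66, SE 0.13, limma adjusted p = 0.0062). Every contused value was raised to the floor before the fit, so the contused arrays of Kcns3 add no spread to this SE and p. Kcns3 also entered the test through the uninjured group only. The related Kcns1 gave 154, 133 and 172 against 175, 136 and 147. The groups overlapped, with a log2 change of -0.01 (limma adjusted p = 0.984). Kcnf1 and Kcng1 had log2 changes of 0.18 and 0.1 and did not pass. Kcnb2, a delayed rectifier of neuronal cell bodies and the pore with which such subunits assemble, gave 164, 78.2 and 118 against 85.2, 106 and 70.1. Its spread on uninjured arrays, with an SD of 43.2, exceeded the difference between the means (log2 change -0.42, limma adjusted p = 0.302).

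Among the remaining Kv alpha subunits, Kcnd genes carry the transient A-type current that delays firing, and Kcnq3 part of the M-current that restrains it. On its brightest probe set Kcnd3 gave 122, 120 and 156 in uninjured cord and 136, 145 and 130 after contusion, so the groups overlapped (log2 change 0.06, limma adjusted p = 0.847). Its other tested probe set had a log2 change of -0.16, also not called. Kcnd2 had a log2 change of -0.34, past an unadjusted p of 0.05 but not the adjusted one (0.147); it passed without uninjured array 1 (0.0255). Kcnq3 gave 249, 216 and 277 against 281, 253 and 250 on its brighter probe set (log2 change 0.09, limma adjusted p = 0.749). The log2 change of its other probe set was -0.02, with no call.

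Of the K2P channels, Kcnk1 (TWIK-1, a weakly conducting leak channel of neurons and astrocytes) gave 183, 196 and 170 in uninjured cord and 117, 120 and 127 after contusion. The groups were clearly apart, and the signal fell 1.5-fold, from a mean of 183 ± 13.1 to 122 ± 5.34 (log2 change -0.59, SE 0.14, limma adjusted p = 0.0145). Without contused array 2 it did not pass (adjusted p = 0.0597). The acid-sensitive channel gene Kcnk3 gave 177, 141 and 158 against 163, 158 and 216 on its brighter probe set, with no call (log2 change 0.17, limma adjusted p = 0.567). Its other probe set had a log2 change of -0.16 and was not called either. Kcnk5, another acid-sensitive channel, gave 137, 92.2 and 102 in uninjured cord and 143, 149 and 139 after contusion. These groups did not overlap, but the rise did not pass (log2 change 0.4, limma adjusted p = 0.135). Without uninjured array 1, Kcnk5 was the single member called higher.

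Inward rectifiers held 22 probe sets of 15 genes, and the 13 tested had a median log2 change of -0.0018, from -0.48 to 0.37. Kcnj14, a rectifier found in motor neurons, had 268, 299 and 361 in uninjured cord and 278, 199 and 211 after contusion. Contused array 1 exceeded uninjured array 1, and the gene was not called (log2 change -0.44, limma adjusted p = 0.12). The following rectifiers were named after their values were seen. Kcnj10, the main potassium uptake channel of spinal glia, gave 166, 174 and 190 against 152, 147 and 156 on 1 probe set. These groups did not overlap, but the difference was small and did not pass (log2 change -0.22, limma adjusted p = 0.324). On its other probe set the log2 change was 0.03 (adjusted p = 0.938). Kcnj16, which pairs with Kcnj10 in glia, had log2 changes of -0.13 and -0.0018 on its probe sets. Of the 6 astrocyte markers tested, 1 was higher (Gja1) and 0 lower, and of 6 oligodendrocyte markers 3 were lower and 0 higher. Gja1 did not pass without contused array 1, 2 or 3 or uninjured array 1 or 3 (adjusted p up to 0.144), nor without the filter on dim probe sets (0.143).

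Kcnj11, the pore of ATP-sensitive potassium channels, gave 143, 155 and 170 in uninjured cord and 81.4, 133 and 129 after contusion on 1 probe set, without overlap. It did not pass (log2 change -0.48, limma adjusted p = 0.133), and its second probe set had a log2 change of -0.15. Abcc8 and Abcc9, the sulfonylurea receptors that complete this channel, had log2 changes of -0.24 and 0.24 and were not called. Of the G protein-gated rectifiers, which mediate slow inhibition, Kcnj3, Kcnj5 and Kcnj9 had log2 changes of -0.03, 0.04 and 0.16, and Kcnj6 lay below the floor on all arrays. Kcnj4 was higher on every contused array (120, 126 and 128) than on any uninjured one (107, 78.2 and 108), but missed the threshold (log2 change 0.37, limma adjusted p = 0.14).

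Kcnmb1, the beta subunit that tunes large-conductance calcium-activated channels of smooth muscle, gave 182, 182 and 213 in uninjured cord and 223, 296 and 234 after contusion. The groups did not overlap, and this probe set did not pass (log2 change 0.38, limma adjusted p = 0.14). On the second Kcnmb1 probe set, AB010963_s_at, the groups overlapped and the log2 change was 0.07 (limma adjusted p = 0.788). None of 3 tested smooth muscle markers passed in limma. Kcnma1, the pore of those channels, was at or below the floor on all arrays and all 4 of its probe sets. Kcnn1, a small-conductance calcium-activated channel that produces the afterhyperpolarisation, gave 89.8, 82 and 84.8 against 70.6, 103 and 80.8 (log2 change -0.03, limma adjusted p = 0.922). Kcne1, a small partner of Kcnq1, lay below the floor on all arrays.

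Across the 52 tested members the 3 contused arrays lay wholly below the uninjured ones in 11 probe sets and wholly above in 3. Together these are 26.9% of the members, beside 34.8% of all probe sets tested (18.2% lower and 16.6% higher). Of the 11, 7 were called; the others were probe sets of Kcnab1, Kcnh4, Kcnj10 and Kcnj11. The 3 higher ones, none of them called, were Kcnj4, Kcnk5 and Kcnmb1.

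The other 30 members were too dim to be tested: 21 were at or below the floor on all arrays and 9 were above it on 1 or 2. Their highest signal on any array was 80. Kcnt1, a sodium-activated channel, gave 60.6, 80 and 75 in uninjured cord and 30.4, 31.6 and 40 after contusion, without overlap. The silent subunit Kcnv1 gave 26.3, 20.9 and 30.2 against 49.5, 54.1 and 56.7, all below the floor, where values carry no reliable order. For these genes no fold is given.

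On the array 22 member genes had more than 1 probe set, and for 11 at least 2 were tested. For 3 genes, Kcna1, Kcnab2 and Kcnh2, some tested probe sets passed and others did not. The Kcna1 probe sets changed alike, with a log2 ratio between them of -1.15 ± 0.19 in uninjured cord and -1.14 ± 0.33 after contusion (SD, n = 3 per group). The Kcnab2 probe sets did not. Probe set X76724_at gave 468, 321 and 391 in uninjured cord and 437, 367 and 467 after contusion, with overlapping groups and a log2 change of 0.12 (limma adjusted p = 0.699). The log2 ratio of rc_H33656_at to X76724_at was 1.3 ± 0.35 in uninjured cord and -0.29 ± 0.05 after contusion. The arrays did not overlap in this ratio. Since these genes were picked because their probe sets were called differently, the ratios are given as a description, with no test. Likewise Kcnh2 on U75210_s_at gave 335, 244 and 295 against 331, 300.3 and 320.2, a log2 change of 0.13 (limma adjusted p = 0.615). Its ratio of Z96106_at to U75210_s_at was -0.97 ± 0.49 and -2.09 ± 0.16, again without overlap. For Kcnab2 and Kcnh2 the call rests on 1 of 2 probe sets each. Of the 4 Kcnc2 probe sets, M59211_at, M59313_at and M84203_s_at were too dim to be tested. M59211_at gave 60.8, 62.2 and 66.5 against 57, 56.7 and 45.3, and M59313_at and M84203_s_at were below the floor on all arrays. The transcript parts that these probe sets cover are not given in the sources used here.

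**Figure D3:**
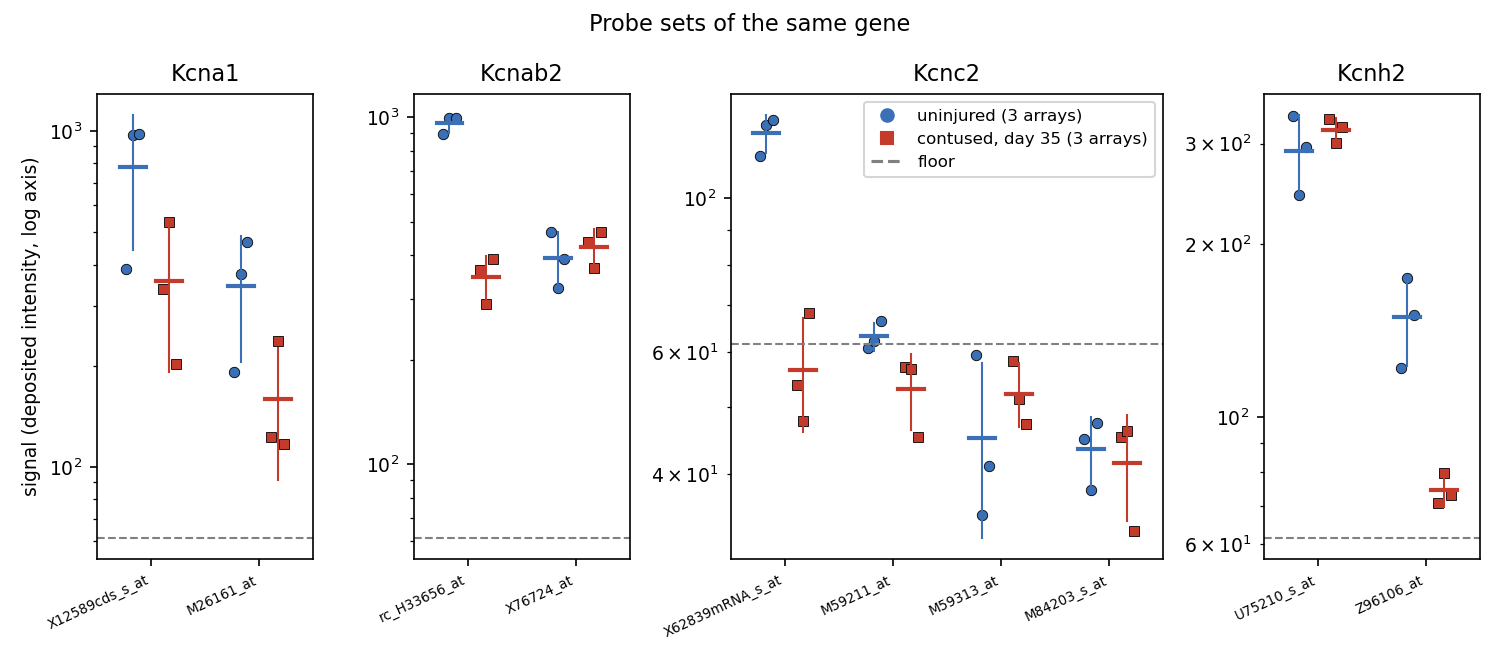
Signal on a log axis for each probe set of the 4 genes with several probe sets and at least 1 called, on 3 uninjured arrays (circles) and 3 contused arrays (squares). Horizontal bars are means, vertical bars SDs, and the dashed line is the floor of 61.6. Of the 2 Kcna1 probe sets, only M26161_at passed, and both have overlapping groups. For Kcnab2 and Kcnh2, 1 probe set each passed, and the groups of the other overlap.

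Proteins that bind or place potassium channels followed from a list of 35 genes, of which 18 were tested. Of these, 6 were lower and 0 higher, beside 392 lower and 277 higher among all 3955 tested genes. The median log2 change was -0.24, beside -0.02 over all 3955 genes. Amigo1, a membrane protein that partners Kcnb channels, fell 2.03-fold, from 186 ± 16.1 to 91.8 ± 9.94 (limma adjusted p = 0.000995). Ank3 (ankyrin-G, which anchors sodium and Kcnq channels at the axon initial segment and nodes) fell 2.06-fold. With every contused array at the floor, the fall of Lin7b, whose product organises membrane scaffolds, was at least 2.19-fold. Lin7b was above the floor on uninjured arrays only and entered the test through that group, so the filter itself favours its fall. The remaining falls, named after their values were seen, were in Cntnap1 (contactin-associated protein of the paranode), Dlg4 (PSD-95, a scaffold that binds Kcna channels) and Dpp6, an auxiliary subunit of Kcnd channels. Their log2 changes were -0.84, -0.69 and -0.88. Cntn2, an adhesion molecule that helps gather Kcna channels beside the node, had a log2 change of -0.24 and did not pass; it was named on the same basis.

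Genes that move potassium across membranes by other means gave 1 higher and 3 lower of 11 tested, with a median log2 change of -0.01. Among all 3955 tested genes 277 were higher and 392 lower. Slc12a5, the potassium-chloride cotransporter of neurons, fell 2.87-fold in the fit, with means going from 863 ± 118 to 306 ± 84.1 (limma adjusted p = 0.000573). Atp1b1, a beta subunit of the sodium-potassium pump, fell 1.4-fold and Slc12a2, a sodium-potassium-chloride cotransporter, 1.39-fold, while Fxyd2, a regulator of the pump, rose 2.25-fold. Only Slc12a5 passed under every alternative and with each array left out. Atp1b1, Slc12a2 and Fxyd2 did not pass when every probe set was tested, dim ones included (adjusted p = 0.0622 to 0.249). Atp1b1 was also lost when contused array 2 (0.0542) or uninjured array 3 (0.101) was left out. Slc12a2 was lost without contused array 1 (0.0938), uninjured array 2 (0.112) or uninjured array 3 (0.111). Fxyd2 was lost without contused array 1 (0.0778), 2 (0.129) or 3 (0.118) and without uninjured array 2 (0.0924) or 3 (0.0958).

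General neuron markers were lower in 7 of 8 tested cases and higher in 0, with a median log2 change of -0.96. Their summed signal was 7792 to 8136 after contusion, 0.498 to 0.52 of the uninjured mean, and the exception was Gap43 with a log2 change of 0.002. Oligodendrocyte markers summed to 11879 to 13252 after contusion and astrocyte markers to 4702 to 5629, beside 4906 to 5406 in uninjured cord. The part of these shifts in the potassium channel values was not tested. None of the 5 tested endothelium and pericyte markers passed in limma. None of 4 Schwann cell markers passed either, although their summed signal did not overlap between groups, at 4188 to 5223 after contusion and 3453 to 3770 in uninjured cord. Of these, Pmp22, a myelin protein, had a log2 change of 0.4 (limma adjusted p = 0.0507). It passed as higher under 6 alternatives (adjusted p = 0.0288 to 0.0498): the higher floor, no floor, both normalizations, the replicate block and without contused array 1. Prx passed with quantile normalization (0.045) and without uninjured array 2 (0.0438), and Ngfr without contused array 3 (0.0341). Of 4 T lymphocyte markers 1 was higher, Cd4, which rat macrophages also carry; it did not pass with the floor at the 50th percentile (adjusted p = 0.0827).

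**Figure D4:**
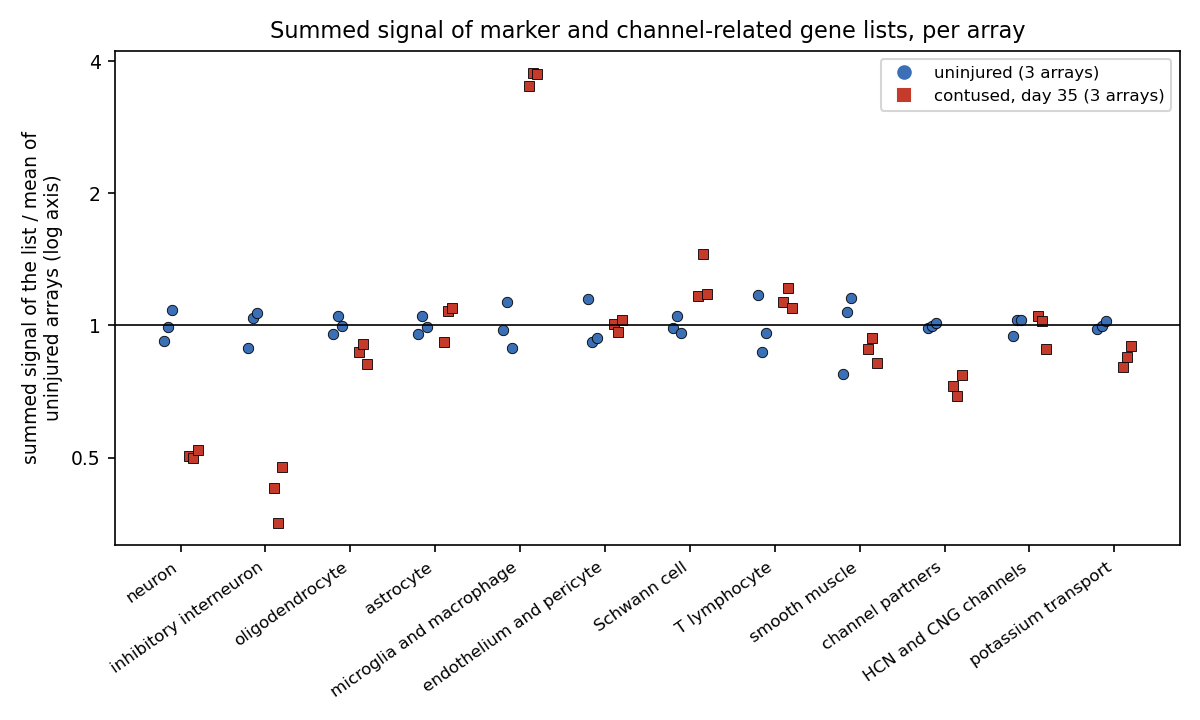
Summed signal per array of each gene list, divided by the mean of the 3 uninjured arrays, on a log axis. Circles are uninjured and squares contused arrays. On contused arrays, neuron and inhibitory interneuron lists sit at 0.52 of the uninjured mean or less and channel partners between 0.691 and 0.772. Microglia and macrophage markers sit at 3.51 to 3.75 on those arrays.

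Sequence upstream of the transcription start was read for the called genes of Kcnc and Kcnab, the 2 subfamilies with more than 1 gene called. The aim was to set the start regions of these falling genes side by side. RefSeq promoters of the GRCr8 assembly were matched to 40 of the 54 genes, and the 250 bases before the first listed start are given 5' to 3' on the gene's strand. Capitals mark GGGCGG or its reverse complement CCGCCC, the core of the GC box.
Kcnc1 (chr1:106038997-106039246, plus strand): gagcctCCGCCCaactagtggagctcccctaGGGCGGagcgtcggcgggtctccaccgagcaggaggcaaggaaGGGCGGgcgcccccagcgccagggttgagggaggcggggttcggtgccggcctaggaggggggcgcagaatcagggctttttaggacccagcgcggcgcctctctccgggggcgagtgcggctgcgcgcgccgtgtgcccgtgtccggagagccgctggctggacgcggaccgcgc
Kcnc2 (chr7:49587364-49587613, plus strand): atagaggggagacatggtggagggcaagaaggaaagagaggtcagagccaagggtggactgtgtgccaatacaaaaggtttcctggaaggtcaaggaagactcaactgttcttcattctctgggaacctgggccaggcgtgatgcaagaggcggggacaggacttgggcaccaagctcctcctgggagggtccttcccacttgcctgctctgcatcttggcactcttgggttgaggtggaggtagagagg
Kcnab2 (chr5:168270761-168271010, minus strand): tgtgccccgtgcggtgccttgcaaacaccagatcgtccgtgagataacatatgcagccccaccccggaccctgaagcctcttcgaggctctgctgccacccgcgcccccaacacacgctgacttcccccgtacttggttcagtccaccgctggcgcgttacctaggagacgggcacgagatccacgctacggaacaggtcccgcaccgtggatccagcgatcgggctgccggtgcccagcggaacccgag
Kcnab3 (chr10:54546388-54546637, plus strand): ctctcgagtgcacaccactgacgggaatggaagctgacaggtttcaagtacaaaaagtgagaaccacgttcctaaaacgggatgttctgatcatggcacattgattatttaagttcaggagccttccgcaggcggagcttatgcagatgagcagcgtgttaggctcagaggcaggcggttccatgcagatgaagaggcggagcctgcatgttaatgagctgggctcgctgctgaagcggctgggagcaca
The GC content of these 250 bases was 74.4% for Kcnc1, 56% for Kcnc2, 65.2% for Kcnab2 and 52.8% for Kcnab3, beside a median of 63.4% over the 40 matched potassium channel genes, 59.2% over the 5 called ones among them and 52% over 27457 genes. GGGCGG on either strand was found 3 times upstream of Kcnc1 and not in the windows of the other 3. Kcnc4 and Kcnab1, the genes of these subfamilies that were not called, held it 1 and 0 times, at 60.8% and 56% GC. The motif occurred in 20 of the 40 potassium channel windows and in 32.4% of all windows of that length. Among the 5 called genes with a window, Kcns3 also held it. TATAAA on either strand was in 0 of these 5, in 2 of the 40 and in 13.1% of all windows. CACGTG (the E-box, its own reverse complement) was in 1 of the 40 and 5.79% of all, and TGACGTCA, the cAMP response element, in 0 of the 40 and 1.7%.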

How the data were processed

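Single-colour arrays of 6 spinal cord RNA samples were analysed. The deposited table holds 1 intensity per probe set and array on a linear scale, as its skewed values, some below 0, show. The authors' probe summary, background correction and scaling are not given in the sources used here. Trimmed means (2% at each end) differed by 9.03%, within the limit of 10% set for leaving values as deposited, and 0 columns of other samples were present.

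Gene names came from the array's annotation, and 0 member symbols changed on update through the gene identifier to GRCr8, used for names and promoter sequences only. The 59 control probe sets were left out. Values below the pooled 25th percentile (61.6, or 5.94 on the log2 scale) were raised to it before log2. Probe sets above it on at least 3 of 6 arrays entered the fit, made in limma 3.58.1 (R 4.3.3; lmFit, eBayes with trend, 4 residual degrees of freedom, two-sided, no covariates), with Benjamini-Hochberg adjustment over all 6705 and a threshold of 0.05. A fold against a group wholly at the floor is written "at least". Signals are means ± SD over 3 arrays. The number of arrays limits the precision. The fit was tested on simulated data. Figures were drawn with matplotlib 3.10.9.

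Every member past the threshold is named, with the brightest other probe set of each subfamily, further probe sets of called genes, and up to 3 risen and 3 fallen genes of the partner and transport lists. The members and lists were chosen with earlier results of these data known. Alternatives were the floor, the filter, 2 normalizations, the trend, a replicate block and each array left out.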

Additional observations from a re-analysis of the deposited data

How the results depend on the processing

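No member was called higher, and lower members numbered 6 to 10, under each alternative but those that follow. When the floor was the 50th percentile, 4 probe sets and 3 genes were lower, since Kcnab3, Kcnc2, Kcnh2 and Kcns3 were then too dim to be tested. Leaving out 1 array gave 6 to 11 called members: 6 to 10 probe sets and 5 to 8 genes were lower, and 0 to 1 probe sets and 0 to 1 genes higher (1 without uninjured array 1). The median log2 change of members was then -0.086 to -0.00073, lowest without contused array 2. Kcnab2 rc_H33656_at, Kcnh2 Z96106_at and the called probe sets of Kcnc1, Kcnc2 and Kcns3 passed under every alternative that tested them. The other tested probe sets of Kcnab2 and Kcnh2 passed under none. Over all probe sets, 662 passed without the filter on dim probe sets, and with 1 array left out 659 (without uninjured array 3) to 1260, with 723 without contused array 2. Without the filter Kcna1 M26161_at was lost (adjusted p = 0.263), and likewise with quantile normalization (0.0519) and without the intensity trend (0.0527). The causes were not tested.

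Replicate numbers are shared by the groups, but same-numbered arrays did not deviate together (correlations 0.04, 0.22 and -0.24). With a replicate block 10 members were lower instead of 8, adding Kcna1 X12589cds_s_at (log2 change -1.11, adjusted p = 0.0248) and Kcnab1, and 1200 probe sets passed in all.

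Of 647 values of the 52 tested members under alternatives, 596 kept direction and side of the threshold and 10 lost a call. Calls were gained in 9: Kcna1 X12589cds_s_at (3), Kcnab1 (4), Kcnd2 (1) and Kcnk5 (1). The other 32, of 15 probe sets, changed sign; none of these was called in either fit. Among the 24 probe sets that the naming rule chose, 12 values changed sign, each with 1 array left out. The log2 change then ran from -0.021 to 0.25 for Kcnab2 X76724_at, from -0.011 to 0.18 for Kcnd3 and from -0.0089 to 0.17 for Kcnq3, each lowest without uninjured array 2. It ran from -0.17 to 0.079 for Kcnh3, from -0.18 to 0.093 for Kcnn1 and from -0.11 to 0.083 for Kcns1. Signal near the floor limits the 30 dim members, which were not tested.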
